A study of Mus musculus with 4 samples.

Results

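Wnt-active tumour epithelial cells were taken as the epithelial barcodes that carried RNA of the Wnt feedback inhibitors Wif1, Notum and Nkd1. A barcode was kept with at least 500 UMIs (unique molecular identifiers, each marking 1 captured RNA molecule), at least 200 genes and at most 20% mitochondrial UMIs. It counted as epithelial with at least 3 UMIs of Epcam, Krt8, Krt18 and Krt19 together and 0 of Ptprc, the gene of the leukocyte antigen CD45. It counted as Wnt-active when selected on at least 3 UMIs of Wif1, Notum and Nkd1 together and less than 1% of its UMIs from the secretory genes Spink4, Agr2, Reg4, Muc2 and Fcgbp. The rule found 633 barcodes of 1642 epithelial ones, a share of 38.6% (exact binomial 95% interval 36.2 to 41.0%), among 14198 barcodes kept of 18026. They were compared with the other 1009 epithelial barcodes, 155 of them secretory by the 1% limit and 854 not.

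The cells came from colon polyps of female C57BL/6 mice given azoxymethane, a carcinogen, at 12.5 mg/kg and then dextran sulphate sodium (DSS), which causes colitis, in 3 cycles of 2.5, 2.5 and 2%, and tissue was collected 30 days later. There are 4 labelled samples, 1 in each group: sorted CD45+ and CD45- cells of EgfrΔMYL mice, in which Egfr is deleted in myeloid cells, and of Egfr fl/fl control mice. All 4 groups carried the floxed Egfr allele and the same treatment, and the labels give neither the driver of the deletion nor how many animals were pooled. The deposited matrix mixes them under 4 barcode suffixes that no source used here pairs with a sample, so genotype and sort were not compared, and each suffix is called a library and stands alone.

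In the intestine, Wnt ligands from the niche keep beta-catenin from being degraded, and beta-catenin with TCF and LEF factors switches on genes that maintain stem cells at the crypt base. Some of those targets are brakes on the same pathway: Notum is a secreted enzyme that removes the lipid of Wnt proteins, Wif1 is a secreted protein that binds them, and Nkd1 acts inside the cell on Dishevelled. Azoxymethane tumours of the mouse colon commonly carry activating mutations of beta-catenin, and intestinal tumours with an active pathway are known to express these brakes strongly. No mutation was measured here.

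Nearly all members came from a pair of the libraries. Library 2 held 555 and library 1 held 71, while libraries 3 and 4 held 1 and 6. Of the epithelial barcodes, members made up 47.7% (44.8 to 50.6%) in library 2 and 18.8% (14.97 to 23.1%) in library 1. Because the suffixes are unassigned, genotype, sort and library cannot be told apart in these shares.

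Members were deeper than the barcodes they were compared with. Their median was 14466 UMIs, against 3023 in the other epithelial barcodes, and this gap held inside library 1 (23661 against 3038) and library 2 (14410 against 3022). Haemoglobin genes took 0.225% of the members' UMIs and 0.709% of the others', and immunoglobulin genes took 0.00264% and 8.98%. That immunoglobulin RNA lay mostly in the other barcodes of libraries 3 and 4, where it was 56.0 and 52.6% of UMIs. Markers of T and B cells summed to 9.80 CPM (UMIs per 1000000) in members and 9362 CPM in the others, those of myeloid cells to 19.7 CPM in members and 130 CPM in the others, those of fibroblasts and endothelium to 4.64 CPM in members and 5.46 CPM in the others, and those of red cells to 2255 CPM in members and 7117 CPM in the others. No UMI was seen in members for 3 of 8 T and B cell, 2 of 10 myeloid, 3 of 10 fibroblast and endothelial and 0 of 6 red cell markers. With barcodes of at least 1% immunoglobulin UMIs removed from both groups, 136 of 136 named genes kept their sign and 120 were at least 2-fold apart. In libraries 1 and 2 alone, with barcodes of at least 5% haemoglobin UMIs removed as well, 134 of 135 kept their sign and 112 were at least 2-fold apart. Most named genes were picked for large ratios, and those outside the lists also for the same direction in libraries 1 and 2. That choice favours kept signs, so these counts are a description. Both removals were chosen after seeing the data, and the part of the myeloid RNA was not tested. For depth, values between barcodes of like depth stand beside the results.

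The rule genes themselves are given as a description, since they chose the members. Wif1 stood at 723 and 702 CPM in members of libraries 1 and 2, against 43.7 and 70.6 CPM in the other epithelial barcodes of those libraries. Notum stood at 410 and 321 CPM in members, against 5.35 and 22.5 CPM in the others, and Nkd1 at 800 and 791 CPM, against 18.6 and 44.5 CPM. The members' levels of each gene were close in the 2 libraries. The genes were seen together in most members: 470 had UMIs of all 3, 122 of a pair and 41 of a single gene, which was Nkd1 in 35 of them. The summed count per member ran from 3 to 218 with a median of 22 UMIs. On chromosome 10 of mm10 (GRCm38), Wif1 lies at 121033960-121100650 on the plus strand. Notum lies on the minus strand of chromosome 11 at 120653788-120661175, and Nkd1 on the plus strand of chromosome 8 at 88521354-88594884.

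The remaining markers of the label, Mt3, Mt4 and Spock2, were not used by the rule. They were chosen with earlier results of these data known, so their shares describe the members and are no independent check of the label. At least 1 of them was seen in 570 of 633 members, 90.0% (87.4 to 92.3%), against 254 of 1009 other epithelial barcodes, 25.2% (22.5 to 28.0%). All 3 were seen in 302 members (47.7%) and 19 others (1.88%), and 63 members had none. Within 8404 to 19933 UMIs, the middle range of the members' depth, the share was 90.5% of 317 members and 21.2% of 118 non-secretory others (14.2 to 29.7%). Immune barcodes of the same libraries, with at least 2 Ptprc UMIs and 0 of the 4 epithelial genes, served as cells that should lack these genes. That choice leaves out immune barcodes that had picked up UMIs of the 4 genes. Their shares can therefore lie below the level of RNA from outside the cell and do not measure it. Thinned to 1000 UMIs per barcode, Mt3 was seen in 44.9 and 57.5% of members of libraries 1 and 2, against 0 of 65 and 2.97% of 101 immune barcodes, where 0, set at 3 counts, allows up to 4.62%. Unthinned, these shares were 71.8 and 82.2% of members, with median depths of 23661 and 14410 UMIs, and 1.54 and 3.48% of immune barcodes, with medians of 4985 and 1559 UMIs. Thinned, Mt4 was seen in 29.0 and 42.2% of members, against 0 of 65 and 4.95% of 101 immune barcodes. In library 2 that immune share (1.63 to 11.2%) was near the 6.10% of other epithelial barcodes. Spock2, thinned, was seen in 33.3 and 36.2% of members, against 0 of 65 and 0.990% of 101 immune barcodes. Epcam, the epithelial adhesion molecule, stood at 3032 CPM in members and 2645 CPM in the others, and it was used by the rule. Cdh1 (E-cadherin) stood at 141 CPM in members and 234 CPM in the others, and the brush-border gene Vil1 at 73.3 CPM in members and 128 CPM in the others.

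Metallothioneins, small cysteine-rich proteins that bind zinc and copper, were higher in members, at least 2-fold in 3 of 4 genes. Mt4, known for its expression in stratified squamous epithelium, stood at 1821 and 2333 CPM in members of libraries 1 and 2, against 21.4 and 99.2 CPM in the others. Mt3, best known as a brain metallothionein, stood at 1239 and 1509 CPM in members, against 25.5 and 79.8 CPM. In both libraries members were far above the others for these 2 genes. Over all libraries the log2 ratio was 5.19 for Mt4 (95% interval 5.06 to 5.32) and 4.88 for Mt3 (4.74 to 5.02). These intervals come from the ratio of 2 summed counts and cover counting error only, since cells are not replicates and each group is 1 pooled set of barcodes. No ratio carries a p-value, and every gene below is a description of the contrast that chose the members.

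The widely expressed members of the family differed less. Mt2 stood at 389 and 392 CPM in members of libraries 1 and 2, against 91.5 and 74.6 CPM in the others, a pooled log2 ratio of 2.35 (2.23 to 2.48). Mt1 stood at 1082 and 777 CPM in members, against 602 and 472 CPM, a pooled log2 ratio of 0.78 (0.73 to 0.84) that is short of 2-fold. Slc30a2, a zinc exporter of vesicles, stood at 159 and 276 CPM in members, against 18.2 and 41.2 CPM, a pooled log2 ratio of 3.28 (3.08 to 3.48). The plasma membrane zinc exporter Slc30a1 (log2 ratio 0.13) and the metal-sensing factor Mtf1 (-0.02) were nearly level in members and others. The zinc importer Slc39a5 had 0 UMIs in members and 6.41 CPM in the others. Of 14 counted genes of the metallothionein, zinc and copper list, 4 were at least 2-fold higher and 2 at least 2-fold lower, with a median log2 ratio of 0.56. The background over 13971 genes with at least 10 UMIs was 15.3% at least 2-fold higher and 13.6% at least 2-fold lower, with a median of 0.31 that each list is read against.

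The 4 metallothionein genes lie in a row on the plus strand of chromosome 8 (GRCm38), with Mt4 at 94137197-94139031, Mt3 at 94152607-94154146, Mt2 at 94172664-94173568 and Mt1 at 94179082-94180327, within 43.1 kb. Metal-dependent transcription of Mt1 and Mt2 is known to run through metal response elements bound by MTF1. The 250 bases before each RefSeq gene start (GRCm38.p6) are printed to show which windows hold the core of that element, TGCGCNC or TGCACNC on either strand. Capitals mark each match, and the windows are chr8:94136954-94137203 for Mt4, chr8:94152357-94152606 for Mt3, chr8:94172368-94172617 for Mt2 and chr8:94178839-94179088 for Mt1.
Mt4: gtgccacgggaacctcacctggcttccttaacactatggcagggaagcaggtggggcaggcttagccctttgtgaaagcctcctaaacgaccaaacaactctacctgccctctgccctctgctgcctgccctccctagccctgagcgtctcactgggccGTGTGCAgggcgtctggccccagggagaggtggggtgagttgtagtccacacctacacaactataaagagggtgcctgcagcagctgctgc
Mt3: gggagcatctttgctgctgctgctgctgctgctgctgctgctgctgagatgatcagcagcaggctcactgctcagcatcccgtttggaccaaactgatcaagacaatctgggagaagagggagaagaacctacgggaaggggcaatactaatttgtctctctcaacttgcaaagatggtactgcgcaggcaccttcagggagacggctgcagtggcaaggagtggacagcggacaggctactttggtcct
Mt2: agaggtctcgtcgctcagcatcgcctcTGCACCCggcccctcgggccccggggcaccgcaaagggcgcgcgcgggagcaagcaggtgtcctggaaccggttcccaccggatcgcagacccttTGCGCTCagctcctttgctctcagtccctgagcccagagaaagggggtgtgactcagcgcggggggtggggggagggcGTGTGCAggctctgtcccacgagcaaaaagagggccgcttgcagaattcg
Mt1: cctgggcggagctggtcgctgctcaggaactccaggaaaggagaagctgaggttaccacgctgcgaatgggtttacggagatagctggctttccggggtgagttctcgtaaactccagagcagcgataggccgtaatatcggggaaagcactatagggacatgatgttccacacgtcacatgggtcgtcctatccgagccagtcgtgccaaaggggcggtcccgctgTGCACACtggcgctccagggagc
Mt2 held 3 matches, Mt1 and Mt4 held 1 each, and Mt3 held none. Of all 32851 windows of this length, 21.4% held at least 1 match and 1.26% at least 3. Mt4 and Mt3, with the widest gap of the 4 between members and others, had 1 and 0 of them. Whether matches bear on the levels was not tested. Each window was placed by the annotated RefSeq start and ends just before it, so the number of matches depends on that start. Letters past the start were not searched, and a match is a description of the letters and not a site.

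**Figure D1:**
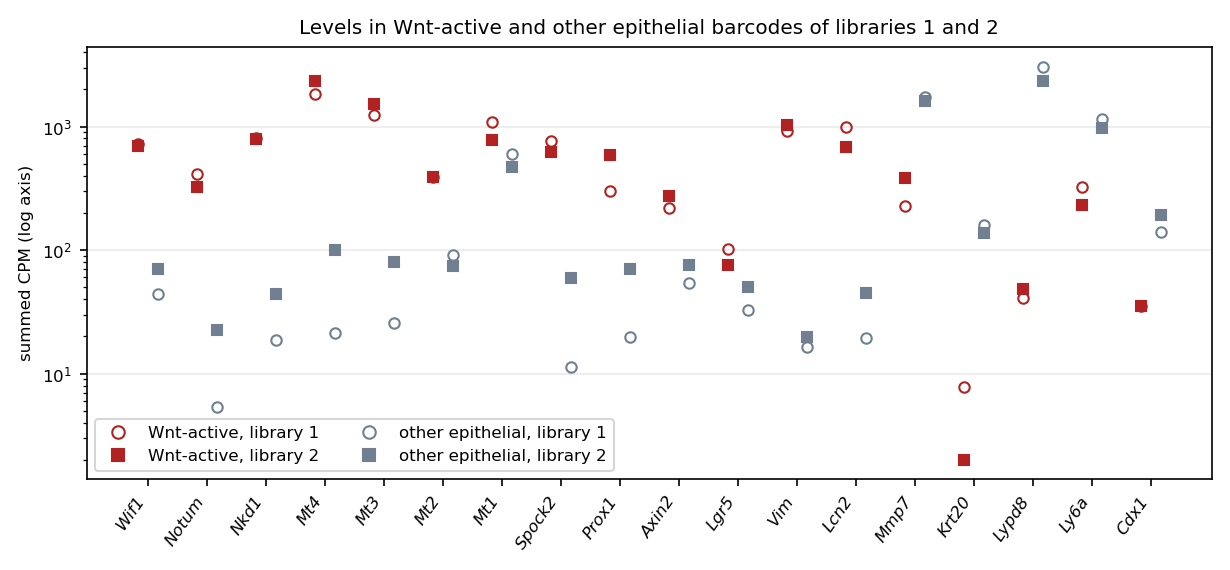
Summed UMIs per 1000000 (CPM, log axis) of 18 genes in Wnt-active barcodes (red, left) and other epithelial barcodes (grey, right), with open circles for library 1 and filled squares for library 2. Each point is 1 library's summed level and carries no replicate error. Mt4 lies at 1821 and 2333 in Wnt-active barcodes and at 21.4 and 99.2 in the others, while Krt20, Lypd8, Ly6a and Cdx1 at the right lie the other way round.

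Genes that beta-catenin and TCF factors are known to drive were higher as a group. Of 23 counted Wnt target and feedback genes, 14 were at least 2-fold higher in members and 3 lower, with a median log2 ratio of 1.41. Within library 1 the counts were 13 higher and 4 lower, beside 12.9% higher and 14.2% lower of all genes there, and in library 2 they were 12 and 3, beside 12.1 and 11.9%. Between barcodes of 8404 to 19933 UMIs 11 were higher and 3 lower, beside 14.8 and 10.6%. The list shares its theme with the rule genes and is no independent evidence of it.

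Axin2, a scaffold of the complex that degrades beta-catenin and a standard readout of the pathway, stood at 220 and 275 CPM in members of libraries 1 and 2, against 54.4 and 75.4 CPM in the others, a pooled log2 ratio of 2.23 (2.08 to 2.37). Sp5, a transcription factor switched on directly by Wnt signals, stood at 110 and 151 CPM, against 13.8 and 17.6 CPM, a ratio of 3.43 (3.15 to 3.72). Lef1, a partner of beta-catenin on DNA, stood at 52.3 and 79.8 CPM, against 5.98 and 8.18 CPM, a ratio of 3.61 (3.20 to 4.04). All 3 were higher in members of both libraries. Prox1, a homeobox factor known from Wnt-driven colon tumours, stood at 303 and 589 CPM in members, against 19.8 and 70.8 CPM, with a ratio of 3.72 (3.57 to 3.88) and the wider gap between libraries. The ubiquitin ligases Rnf43 and Znrf3 remove Wnt receptors from the cell surface. Rnf43 stood at 188 CPM in members and 59.8 CPM in the others (log2 ratio 1.65), and Znrf3 at 68.5 CPM in members and 13.8 CPM in the others (2.32). Dact1, which like Nkd1 acts on Dishevelled, stood at 6.71 CPM in members and 0.356 CPM in the others, a ratio of 4.24 with a wide interval (2.63 to 6.55). Fgf20, a growth factor, stood at 1.86 CPM in members and 0.119 CPM in the others (3.97, 1.31 to 9.35). Beta-catenin's own gene, Ctnnb1, stood at 656 CPM in members and 304 CPM in the others, a log2 ratio of 1.11, while Ccnd1 (1.21) passed and Myc (0.82) missed 2-fold.

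The list was not uniform. Cldn2, a claudin of crypt cells, stood at 83.9 CPM in members and 216 CPM in the others (-1.36), and Slc12a2, an ion cotransporter, and Lrig3 had log2 ratios of -1.15 and -1.97. Cd44 (-0.66) and Ephb3 (-0.81), both classical targets, were lower but by less than 2-fold. Much of the Cldn2 in the others was in the secretory barcodes, at 550 CPM, and over the non-secretory others alone its ratio was -0.26.

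Of 16 matched Wnt target windows, with 1 read per gene, only that of Sp5 held CTTTGAT, a core recognised by TCF and LEF factors. This Sp5 window is shown with the core in capitals. It lies at chr2:70474673-70474922 on the plus strand (RefSeq, GRCm38.p6), just before the gene at 70474923-70477729 on chromosome 2 (GENCODE, GRCm38).
Sp5: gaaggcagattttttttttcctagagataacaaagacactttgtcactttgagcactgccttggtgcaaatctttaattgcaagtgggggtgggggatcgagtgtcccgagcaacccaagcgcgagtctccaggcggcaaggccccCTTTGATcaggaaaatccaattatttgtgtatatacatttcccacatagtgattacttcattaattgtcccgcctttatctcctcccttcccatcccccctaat
On either strand this motif is in 3.21% of all windows. The windows of Wif1, Nkd1 and Axin2, and the first of 4 windows of Lef1, did not hold these letters. The other Lef1 windows are not reported here.

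Members also carried RNA of further inhibitors that act on Wnt signals outside the cell, most of them secreted. Of 13 genes on that list 6 had enough UMIs to count, 5 of them at least 2-fold higher and none lower. Over the non-secretory others 3 of 6 were higher and none lower, with Dkk2 at 0.93 and Trabd2b at 0.75. In library 1 it was 4 of 4 higher, and in library 2 it was 4 higher and 1 lower of 6, the lower one being Sfrp2 (-1.29, from 10 UMIs in members and 12 in the others). Dkk3, a member of the Dickkopf family, stood at 41.5 and 56.5 CPM in members of libraries 1 and 2, against 0.629 and 2.05 CPM in the others, a pooled log2 ratio of 5.51 (4.61 to 6.57). Apcdd1, a membrane inhibitor, stood at 9.19 CPM in members and 0.593 CPM in the others (3.95). Dkk2 was higher by 1.35 in the summed counts (79.6 CPM in members and 31.3 CPM in the others) but level at -0.0226 when every barcode had equal weight. Trabd2b (1.18) and Sfrp5 (1.91, 0.05 to 4.37) completed the count.

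Among ligands, receptors and transducers 6 of 25 counted genes were at least 2-fold higher and 4 lower, with a median log2 ratio of 0.42 that is near the 0.31 of all genes. The 6 included a pair of Wnt ligands. Wnt6 stood at 106 and 91.4 CPM in members of libraries 1 and 2, against 4.72 and 5.11 CPM in the others (4.49, 4.00 to 5.02), and Wnt10a at 77.0 and 57.5 CPM, against 7.55 and 10.2 CPM (interval of the log2 ratio 2.62 to 3.39). Both were higher in members of each library, and over non-secretory others the ratio of Wnt10a was 4.57. Fzd10, a Wnt receptor, had a ratio of 2.89 at 5.26 CPM in members and 0.712 CPM in the others, and Porcn, the enzyme that adds the lipid to Wnt proteins, one of 2.16. Tcf7l1, a TCF factor known mainly as a repressor, was lower at 2.79 CPM in members against 39.9 CPM (-3.84, -4.46 to -3.27). Wnt3, the ligand of Paneth cells in the small intestine, had a ratio of -3.58 over all others and of -0.18 over the non-secretory ones.

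Crypt stem cell genes were partly higher. Of 15 counted genes 6 were at least 2-fold higher, 5 of them (Axin2, Lgr5, Ascl2, Smoc2 and Tnfrsf19) also on the Wnt target list, and 2 were lower. Lgr5, the receptor that marks crypt stem cells, stood at 102 and 76.3 CPM in members of libraries 1 and 2, against 32.7 and 50.1 CPM in the others, a pooled ratio of 1.22 (1.02 to 1.41). The gap was narrow in library 2, and between barcodes of like depth the ratio was 0.83. Ascl2, a stem cell factor, had a ratio of 1.41 and Smoc2, a matricellular protein, one of 1.67, at 231 CPM in members and 72.6 CPM in the others. Msi1, an RNA-binding protein of stem cells, stood at 15.6 CPM in members and 0.475 CPM in the others (5.04, 3.65 to 6.93). Lrig1, a brake on EGFR that marks quieter stem cells, was lower at -1.12.

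**Figure D2:**
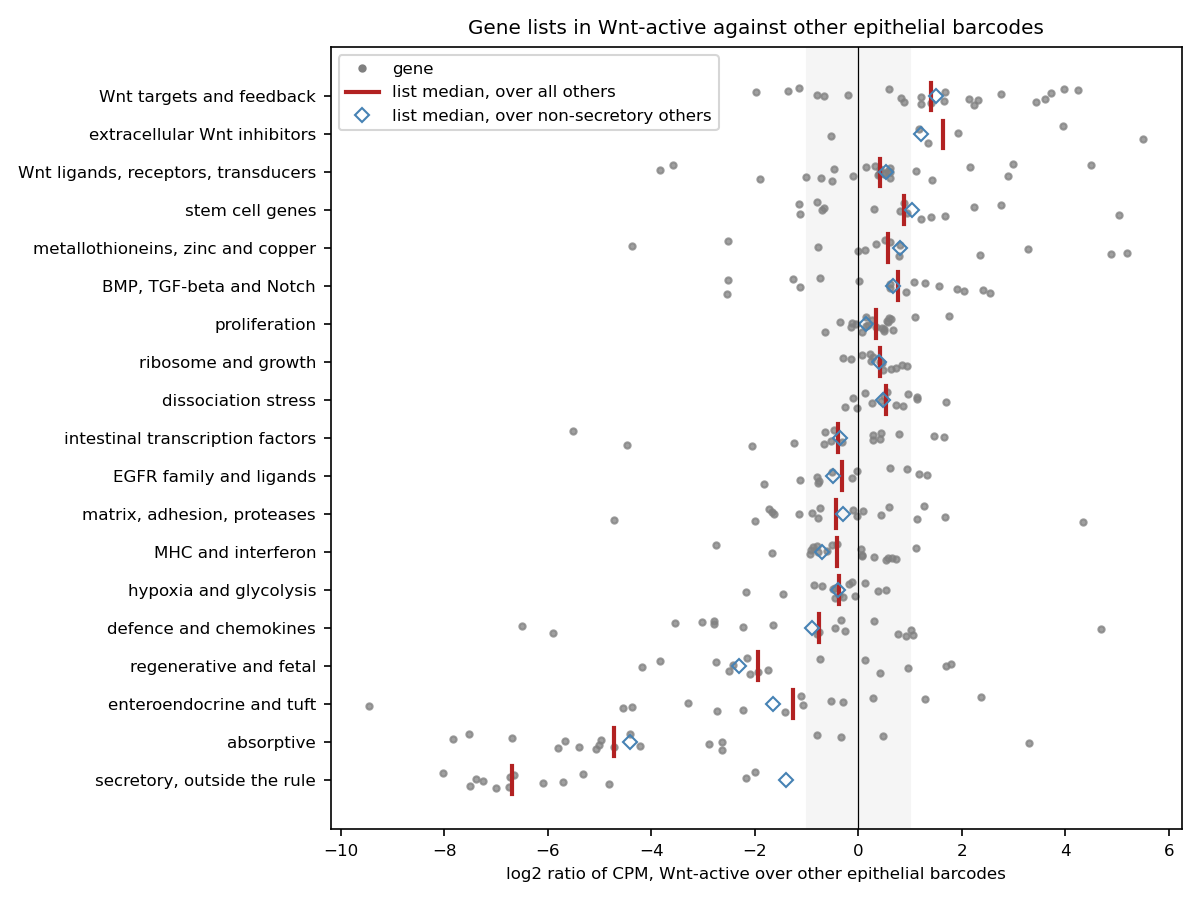
Log2 ratio of CPM in Wnt-active over other epithelial barcodes, with 1 grey point per counted gene of 19 gene lists, the list median over all other barcodes (red bar) and over the non-secretory others (blue diamond). The grey band holds ratios under 2-fold. Medians run from 1.63 for extracellular Wnt inhibitors to -6.70 for secretory genes, whose median over non-secretory others is -1.39.

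Among the leading genes outside the pathway was Vim (vimentin), the intermediate filament of mesenchymal cells. It stood at 916 and 1030 CPM in members of libraries 1 and 2, against 16.4 and 19.9 CPM in the others, a pooled log2 ratio of 5.13 (4.95 to 5.32). Its ratio was 6.91 between barcodes of like depth, and fibroblast and endothelial markers summed to 4.64 CPM in members and 5.46 CPM in the others. Of those markers the endothelial genes Plvap, with 17 UMIs in members and 1 in the others (log2 ratio 3.89), and Cdh5, with 10 UMIs in members and 2 in the others (2.12), were higher, while Pecam1, with 12 UMIs in members and 22 in the others, and the fibroblast gene Dcn, with 0 in members and 10 in the others, were lower. Their part in the ratio of Vim was not tested. Ptn, the secreted growth factor pleiotrophin, stood at 183 and 490 CPM in members, against 2.52 and 10.2 CPM (6.20). Spock2, a secreted proteoglycan and 1 of 4 genes of the matrix list that were higher (6 of 18 were lower), stood at 769 and 626 CPM, against 11.3 and 59.3 CPM (4.34). These 3 genes were far higher in members of both libraries.

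Lipase genes of the pancreas formed another pair. Pnliprp1 stood at 813 and 233 CPM in members of libraries 1 and 2, against 2.83 and 6.65 CPM in the others (6.32), and Pnliprp2 at 665 and 210 CPM, against 9.75 and 7.41 CPM (5.33). Both were higher in summed CPM in library 1 members than in library 2 members. For Pnliprp1 that sum rested on few barcodes. The 7 of 71 library 1 members with most of its UMIs held 82.6% of them, and the 56 of 555 in library 2 held 76.4%. Htra1, a secreted serine protease, had a ratio of 4.69 at 238 CPM in members and 9.25 CPM in the others. Sbspon, a secreted matrix protein, had one of 5.70 at 142 CPM in members and 2.73 CPM in the others. Pdgfrl (5.41), Tesc (4.75), Gpr182 (7.23, from 173 UMIs in members and 1 in the others, 4.74 to 12.55) and Lect2 (6.44), a secreted liver protein, belonged to the same 20 leading genes. Gulo, the enzyme of the last step of vitamin C synthesis in mice, had 112 UMIs in members and 0 in the others, a log2 ratio of 5.02 or above when the 0 is set to 3 counts over the group.

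Genes of differentiated colon were mostly lower. Of 19 counted absorptive genes 15 were at least 2-fold lower and 1 higher, with a median log2 ratio of -4.72. Over the non-secretory others 14 were lower and 1 higher (-4.41), beside 12.5 and 16.0% of all genes. Lypd8, a protein that keeps bacteria off the surface, stood at 40.9 and 48.3 CPM in members of libraries 1 and 2, against 3052 and 2338 CPM in the others (-5.68, -5.81 to -5.54). Krt20, the keratin of surface cells, stood at 7.82 and 2.01 CPM, against 161 and 138 CPM (-5.40). Clca4b, of a family of close copies, had 0.206 CPM in members and 126 CPM in the others (-9.26), and Ceacam20 had 0 UMIs in members and 32.1 CPM in the others. Lypd8, Krt20 and Clca4b were far lower in members of both libraries, and the ratio of Lypd8 was -5.36 between barcodes of like depth. Slc9a3, a sodium-proton exchanger of absorptive cells, was the exception at 89.1 CPM in members and 9.02 CPM in the others (3.30).

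All 14 counted secretory genes that the rule had not used were at least 2-fold lower, with a median of -6.70. Secretory barcodes had been placed in the other group by the rule, so the list was also set against the 854 non-secretory others, where 1 of 12 counted genes was higher and 7 lower, with a median of -1.39. The higher one was Mmp7, a matrix protease of Paneth cells and of intestinal adenomas. Mmp7 stood at 353 CPM in members, against 5266 CPM in secretory and 69.9 CPM in non-secretory others, so its log2 ratio was -1.99 over all others and 2.33 over the non-secretory ones. Defa17, a defensin whose counts are uncertain because the family holds near-identical copies, had a ratio of -6.94 over all others and of 2.96 over the non-secretory ones.

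**Figure D3:**
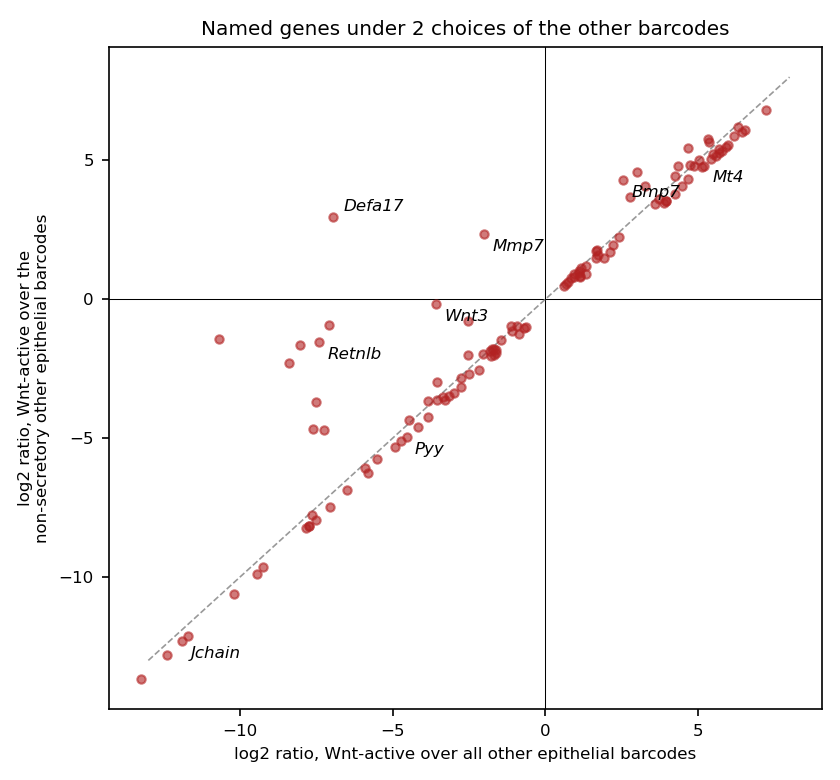
Log2 ratios of 118 named genes, with Wnt-active over all 1009 other epithelial barcodes on the horizontal axis and over the 854 non-secretory ones on the vertical axis, and a dashed line of equal values. Mmp7 and Defa17, in the upper left, are the 2 genes drawn with opposite signs, and most others lie near the line.

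Endocrine and tuft genes differed between the libraries and rested on few barcodes. Over all libraries 2 of 14 counted genes were at least 2-fold higher and 9 lower, with a median of -1.26. In library 2 the count was 1 higher and 11 lower of 14 (median -2.62), but in library 1 it was 4 higher and 1 lower of 8 (0.70). Pyy, a hormone of colonic endocrine cells, stood at 18.4 CPM in members and 428 CPM in the others (-4.54), yet in library 1 at 7.22 CPM in members and 0.944 CPM in the others (2.94). A single barcode held all 234 Chga UMIs of the library 1 members. Avil, an actin-binding protein of tuft cells, was higher in both libraries, at 101 and 95.6 CPM in members against 15.7 and 27.1 CPM in the others (2.36).

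The regenerative and fetal programme, which the colon epithelium is known to switch on after colitis, was lower against the pooled others but not against the secretory ones. Of 15 counted genes 9 were at least 2-fold lower and 2 higher, with a median of -1.94. Over the non-secretory others 10 were lower and 2 higher (-2.30), and over the 155 secretory others 3 of 14 were lower and 6 higher (0.36). Over the secretory others 1325 of all 12980 genes counted were lower and 3113 higher, with a median of 0.39 that is near the list's. Ly6a (Sca-1), its usual surface marker, stood at 322 and 233 CPM in members of libraries 1 and 2, against 1154 and 980 CPM in the others (-2.10, -2.16 to -2.03). Emp1 stood at 8.67 CPM in members and 123 CPM in the others (-3.83), and Anxa3, an annexin, at 34.4 CPM in members and 195 CPM in the others (-2.51), while Msln (mesothelin) had a ratio of -4.18. Cyr61, a target of the factor YAP, was higher at 164 CPM in members and 47.6 CPM in the others (1.79), and Il33, an alarmin, at 42.1 CPM in members and 13.0 CPM in the others (1.69).

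Epithelial defence genes differed in both directions, with 3 of 19 at least 2-fold higher and 8 lower. Saa1, an acute phase protein with a close copy in Saa2, stood at 2.68 CPM in members and 244 CPM in the others (-6.51). Duox2, an oxidase that makes hydrogen peroxide, stood at 9.08 CPM in members and 106 CPM in the others (-3.54), and Pigr, which carries IgA across the epithelium, at 102 CPM in members and 712 CPM in the others (-2.80). Lcn2, an iron-scavenging protein of the innate defence, went the other way, at 989 and 684 CPM in members of libraries 1 and 2, against 19.5 and 44.7 CPM in the others (4.68, 4.50 to 4.87). The members' sums rested on few barcodes. In library 1 a single member held 937 of the 1643 Lcn2 UMIs, and 7 of 71 members held 84.2%. In library 2, 56 of 555 members held 70.1%. Neutrophils also make Lcn2, and it stood at 1064 and 699 CPM in the immune barcodes of those libraries. With barcodes thinned as for the label markers, Lcn2 was seen in 15.9 and 23.8% of members of libraries 1 and 2. Its thinned shares there were 30.8 and 32.7% of immune barcodes and 2.65 and 4.33% of other epithelial barcodes. The myeloid markers, among them the neutrophil genes S100a8 and S100a9, summed to 19.7 CPM in members. The part of neutrophil RNA in the members' Lcn2 was not tested.

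Among transcription factors of the intestine 4 of 16 were at least 2-fold lower and 2 higher. Cdx2, the homeobox factor that sets intestinal identity, stood at 0.602 and 0.755 CPM in members of libraries 1 and 2, against 17.9 and 18.4 CPM in the others (-4.47, -5.81 to -3.39). Cdx1 stood at 35.5 and 35.4 CPM in members of libraries 1 and 2, against 140 and 193 CPM in the others (-2.05). Sox4, a factor of progenitors and tumours, was higher at 780 CPM in members and 248 CPM in the others (1.65), as was Foxq1 at 120 CPM in members and 43.9 CPM in the others (1.45). In the BMP, TGF-beta and Notch list 7 of 16 were higher and 4 lower. Id3, an inhibitor of helix-loop-helix factors and a BMP target, stood at 655 CPM in members and 124 CPM in the others (2.40), and Bmp7, a BMP ligand, at 49.8 CPM in members and 8.54 CPM in the others (2.55, or 4.29 over the non-secretory others). Bmp2, the ligand of surface cells, was lower at 5.26 CPM in members and 30.5 CPM in the others (-2.53).

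Egfr, the gene deleted in the myeloid cells of the mutant mice, was low in members, at 4.81 and 9.69 CPM in libraries 1 and 2, against 41.2 and 32.5 CPM in the other epithelial barcodes (-1.82, -2.19 to -1.46). Between barcodes of like depth the ratio was -0.88. Its ligands Tgfa (1.33) and Btc (1.16) were higher, and 2 of 12 counted genes of the family were at least 2-fold lower. In the antigen presentation and interferon list 1 of 19 was at least 2-fold higher and 2 lower (H2-Aa, -1.67, and Ifit3, -2.75). Of 21 proliferation genes 2 were higher and none lower, with a list median of 0.34. Both are cell cycle inhibitors, Cdkn2a at 76.2 CPM in members and 22.8 CPM in the others (1.74) and Cdkn1a at 246 CPM in members and 115 CPM in the others (1.10).

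Members varied among themselves, and the variation was read by splitting them into tertiles of 211 by the rate of Wif1, Notum and Nkd1 UMIs, with limits at 12.3 and 23.5 per 10000 UMIs. The split follows the rule genes and each tertile drew on both large libraries, with 28, 20 and 23 barcodes of library 1 and 180, 189 and 186 of library 2 in the low, middle and high tertile. Median depths were 15005, 14798 and 14168 UMIs, close to each other over all libraries. In library 2 they were 15226.5, 14416 and 13937 UMIs, but in library 1 16754.5, 26608 and 21155 UMIs, so the low tertile of library 1 was shallower. Of 12046 genes counted, 10.7% were at least 2-fold higher and 7.60% lower in the high over the low tertile.

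Proliferation genes were lower in the high tertile. Of 21 genes 17 were at least 2-fold lower in the high tertile and none higher, with a median log2 ratio of -1.58, against 0.16 over all genes counted. In library 1 the count was 14 lower and 1 higher of 20, beside 10.8 and 16.9% of all genes, and in library 2 it was 17 lower and none higher of 21, beside 7.17 and 10.5%. Mki67, the nuclear antigen of cycling cells, stood at 101, 112 and 43.3 CPM in the low, middle and high tertile, and Cdk1, the kinase of mitotic entry, at 82.5, 44.6 and 10.4 CPM. Top2a, the topoisomerase of dividing cells, stood at 146, 120 and 48.7 CPM. At least 1 UMI of Mki67, Top2a or Cdk1 was seen in 57.3% of the low (50.4 to 64.1%), 45.5% of the middle and 25.1% of the high tertile (19.4 to 31.5%). Thinned to 1000 UMIs, which left out 8 barcodes of the high tertile, the shares were 23.2, 13.7 and 6.40%, and 15.3% in the non-secretory others, whose unthinned share was 26.7%. The tertiles had the same order with and without thinning, while the non-secretory others lay below the middle tertile unthinned and above it thinned.

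Markers of other cells moved with the tertiles too. Red cell markers summed to 666 CPM in the high and 3179 CPM in the low tertile, and 5 of 5 counted ones were at least 2-fold lower. In library 2 this held for 5 of 5, with a median log2 ratio of -2.29, and in library 1 for 0 of 4, with a median of -0.40. T and B cell markers summed to 3.02 CPM in the high and 19.6 CPM in the low tertile, and 2 of 2 counted ones were lower. Of 15 epithelial defence genes 11 were lower in the high tertile and 1 higher. The part of lymphoid and of red cell RNA in the tertile ratios was not tested in either library.

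Several of the leading genes ran the other way. Spock2 stood at 82.2, 578 and 1423 CPM in the low, middle and high tertile, and Vim at 144, 932 and 2114 CPM. Mt4 stood at 1093, 2449 and 3438 CPM and Mt3 at 610, 1480 and 2458 CPM. Mt2, at 297, 413 and 492 CPM, and Mt1, at 855, 741 and 900 CPM, differed by less than 2-fold, and 3 of 12 counted genes of the metallothionein, zinc and copper list were at least 2-fold higher and none lower, with a median of 0.14 beside the 0.16 of all genes. Wnt6 (23.2, 85.1 and 186 CPM) and Dkk3 (13.7, 52.3 and 104 CPM) had the same order, while Axin2 (198, 274 and 338 CPM) spanned less. Regenerative genes were at least 2-fold lower in the high tertile in 8 of 14 and higher in 1, with Ly6a at 433, 189 and 84.0 CPM. Lcn2 had no such order, at 579, 965 and 666 CPM over all libraries. It stood at 461, 2269 and 420 CPM in library 1, where a single member held 937 of 1643 UMIs, and at 607, 732 and 724 CPM in library 2. Ascl2, at 64.1, 65.3 and 37.0 CPM, was lowest in the high tertile.

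**Figure D4:**
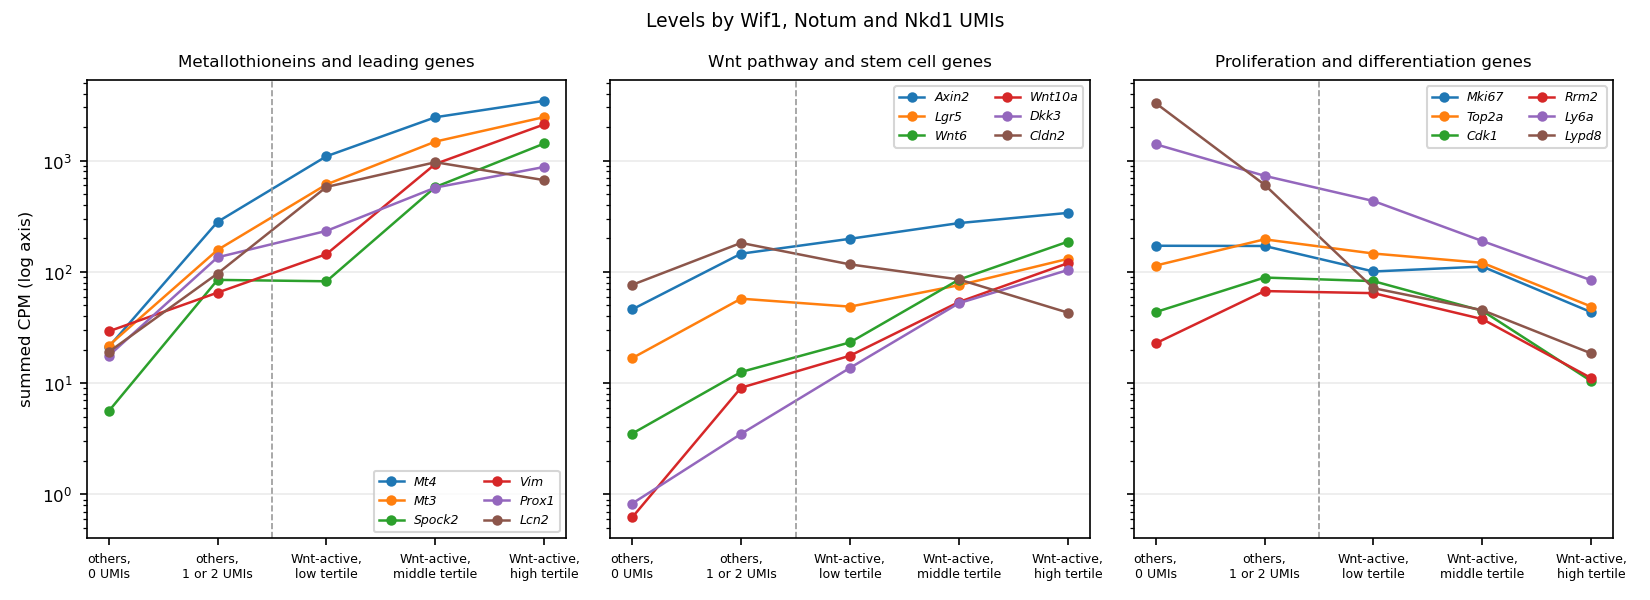
Summed CPM (log axis) along 5 steps of Wif1, Notum and Nkd1 UMIs, from non-secretory other barcodes with 0 and with 1 or 2 UMIs to the low, middle and high tertile of Wnt-active barcodes, with the dashed line at the threshold of the rule. Spock2 reaches 1423 and Cdk1 10.4 in the high tertile, and points carry no replicate error.

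Single genes were unevenly spread over the members. The 63 members with most UMIs of a gene held 60.0% of all Mt4 UMIs, 40.7% of Mt3, 47.9% of Spock2 and 56.7% of Vim, but 29.9% of Axin2 and 32.6% of Prox1. Pnliprp1 (81.6%) and Lcn2 (73.8%) were the most concentrated of these. At least 1 UMI was seen in 96.7% of members for Nkd1, 88.2% for Axin2, 87.0% for Prox1 and 63.7% for Mt4, but in 40.4% for Pnliprp1 and 40.1% for Wnt6. Axin2 and Prox1 were thus common to most members, while the summed levels of Mt4, Pnliprp1 and Lcn2 rested on fewer of them.

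At the threshold itself, 43 members had exactly 3 UMIs of the rule genes, with a median depth of 3983 UMIs, and 65 non-secretory others had exactly 2, with a median of 3281 UMIs. The log2 ratio of the members just inside over the barcodes just outside was 1.03 for Mt4, 1.35 for Mt3, 2.07 for Mt2, 1.62 for Mt1 and -0.62 for Spock2. The 188 non-secretory others with 1 or 2 UMIs lay between the 666 with 0 and the members for several genes, with Mt4 at 21.1 CPM at 0 UMIs, 281 CPM at 1 or 2 and 1093 CPM in the low tertile, and Prox1 at 17.6, 135 and 233 CPM. In these summed counts, members just inside the threshold were above their neighbours for the metallothioneins and below them for Spock2. The deepest barcode held 28204 of 301781 UMIs inside and 68309 of 587348 outside, so single barcodes can weigh on these ratios. Their spread over barcodes was not tested.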

How the data were processed

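Sorted cells of mouse colon polyps were captured with the 10x Chromium 3′ kit, chemistry V3, per the labels' protocols. The deposited matrix holds unnormalised UMI counts, and the submitters' processing notes name Cell Ranger 3.0.2 and mm10. It spans 31053 genes, 18026 barcodes and 129529250 UMIs. Ambient RNA removal and depth equalisation are not given in the sources used here.

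Counts were summed over Wnt-active and over other epithelial barcodes and divided by each total to give CPM (UMIs per 1000000). A gene was counted with at least 10 UMIs in both groups together and called at a 2-fold ratio. The log2 ratio carries an exact conditional 95% interval, which covers counting error only, and a group at 0 was set to 3 counts. With 4 samples that no source pairs with barcode suffixes there are no replicates and no p-values. Shares of barcodes carry exact Clopper-Pearson intervals, which cover counting error only and not differences between libraries. Where stated, barcodes were thinned to 1000 UMIs (seed 1). Scrublet (scanpy 1.11.5, expected doublet rate 6%) marked 50 of 14198 barcodes (0.352%), so few that the caller cannot be taken to have worked, and none were removed. Among kept barcodes, 14 sequences were found under more than 1 suffix. Over all deposited barcodes, 37 kept ones, 2 of them members, had a sequence found under another suffix. The ratio and its calls were tested on simulated data. Tools were python 3.11.15, numpy 2.4.6, scipy 1.17.1 and pandas 2.3.3.

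The members and the 23 gene lists (355 genes) were chosen with earlier results of these data known, so no list is independent support. Named genes were the rule genes and markers, up to 4 genes per list with the largest absolute log2 ratio, list genes needed to name a count of 5 or fewer, and outside the lists the 20 highest and 15 lowest by interval bound with the same direction in libraries 1 and 2. Ribosomal, mitochondrial, haemoglobin and unnamed genes, Xist and Y-linked genes were left out of that rule. Other list genes in the text were chosen after their values were seen. Some list genes are counted but not reported by name here. Promoter windows are from RefSeq (GRCm38.p6) and gene positions from GENCODE M21 (GRCm38). Alternatives changed the barcodes compared, depth, thresholds, filters, library totals and weighting.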

Additional observations from a re-analysis of the deposited data

How the results depend on the processing

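In all, 26 alternatives were run on the counts of genes at least 2-fold higher (2137) and lower (1895) and on 140 named genes. Over all of them the higher count ran from 1418 to 2828 and the lower count from 1102 to 2198. Thinning every barcode to 1000 UMIs gave 1418 higher, a minimum of 50 UMIs in place of 10 gave 1102 lower, and non-secretory others of like depth, an alternative added after seeing the data, gave 1182 lower. Fewer genes were counted in each of these 3. Signs turned for 11 of the 139 named genes with values under the alternatives, most of them picked for large ratios, which favours kept signs. Over non-secretory others the log2 ratio was 0.82 for Reg4, 2.33 for Mmp7 and 2.96 for Defa17, and over others with 0 Wif1, Notum and Nkd1 UMIs it was 0.0175 for Mmp7 and 1.23 for Defa17. Over non-secretory others of like depth it was 2.24 for Fcgbp and 1.80 for Mmp7. In library 1 alone Pyy was at 2.94, and without library 2 Pyy was at 2.37 and Tph1 at 0.30. Dkk2 was at -0.0226 with equal weights. Of the genes that were less than 2-fold apart, Mki67 reached 0.41 (thinned) against -0.64, Adm 0.61 (without library 2) against -0.86, Npm1 -0.099 (non-secretory others of like depth) against 0.62, and Epcam -0.0319 (libraries 1 and 2 without immunoglobulin and haemoglobin barcodes) against 0.20. The cause was not tested. No paired analysis was possible because each labelled group is 1 sample and the barcode suffixes are not paired with samples. Depth limits the set itself, since a barcode of few UMIs can miss the threshold of 3 by counting alone.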

Other observations

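Genes of matrix and adhesion differed in both directions in Wnt-active barcodes. On the matrix, adhesion and protease list Timp1, an inhibitor of matrix proteases (log2 ratio 1.67), Col4a1, a basement membrane collagen (1.27), and Mmp14, a membrane-bound protease (1.13), were at least 2-fold higher, while the laminin chain Lama3 (-1.67) and the collagen receptor Itga2 (-1.74) were lower. The stress gene Atf3 stood at 955 CPM in members and 295 CPM in the other epithelial barcodes (1.70), and 3 of 14 genes of the dissociation stress list were higher and none lower. None of 13 ribosome and growth genes passed 2-fold, with a list median of 0.41. Of 15 hypoxia and glycolysis genes 2 were lower, the hexokinase Hk2 (-1.46) and the carbonic anhydrase Car9 (-2.18), and none were higher.

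Outside the lists, Sycn, a zymogen granule protein, stood at 0.619 CPM in members and 123 CPM in the other epithelial barcodes (-7.63). Hsd11b2, the enzyme that inactivates glucocorticoids, had a ratio of -7.61. Nov had 0 UMIs in members and 759 in the others, a log2 ratio of -8.18 or below with the 0 set to 3 counts, and 348 CPM of it lay in the secretory others against 0.798 CPM in the non-secretory ones.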
